A study of Mus musculus with 4 samples.

Results

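Sparc encodes a secreted, collagen-binding glycoprotein of the matricellular group, proteins that sit in the extracellular matrix and change how cells attach and signal without forming its scaffold. In the brain Sparc is known as a product of glia and of cells of the blood vessel wall. Its relative Sparcl1, also called hevin, is secreted by astrocytes and promotes the formation of excitatory synapses by bridging neurexin and neuroligin, and Sparc is known to counter that activity. The values below describe 1 transcript, ENSMUST00000018737, paired with Sparc by the rule that chose it. The rule lists 2 transcript IDs, of which 1 had a line in the count tables, out of 23175 transcripts in all. Sparcl1 (ENSMUST00000031249) had no line under that ID and was not analysed here.

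Ribosome footprints, the RNA fragments that a ribosome shields from nuclease, were counted in brain tissue of 21-day-old mice of the strain C57BL/6J. In Aldh1l1::eGFP-RpL10a mice the GFP-tagged ribosomal protein is made under the control of Aldh1l1, a gene of astrocytes, and in Snap25::eGFP-RpL10a mice under that of Snap25, a gene of neurons. Beads carrying GFP antibodies pulled down the tagged ribosomes, and RNase I was applied on the beads. There were 2 astrocyte and 2 neuron libraries, each from 2 pooled brains, and the labels speak of replicate experiments. Transgene-free littermates are mentioned in the protocol, but no library from them was analysed here, so the footprints that stick to the beads without a tag were not measured. The files name no genes beside their transcript IDs, so the libraries could not be checked against markers of astrocytes, neurons, endothelial cells or microglia.

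Library totals were 7292950 counts for astrocyte 1, 7968406 for astrocyte 2, 7210269 for neuron 1 and 12833187 for neuron 2. Counts are given per transcript region, under the letters a, b, c and d, whose meaning is not given in the sources used here. Region b held 91.1% to 92.6% of all counts of a library, region a 6.75% to 8.21%, region c 0.218% to 0.252% and region d 0.443% to 0.482%. Levels are in CPM, which is the count divided by the total of its library and set to the same total for all. They are not divided by length. A second transcript ID, ENSMUST00000108858, singled out after its values were seen, had the same region c and region d counts as Sparc in every library and region b counts that differed from those of Sparc by at most 1.24%. Many of the same fragments may therefore have been counted for both IDs, and the Sparc values may not be specific to 1 transcript form. This second ID was left out only of the likeness comparison and was not removed from the other sets with which Sparc is compared below.

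Sparc carried several times more footprints in astrocyte than in neuron ribosomes. Summed over the 4 regions, Sparc had 22214 counts in astrocyte 1 and 27374 in astrocyte 2, against 5137 in neuron 1 and 6428 in neuron 2. Scaled to the library totals, this was 3046 CPM in astrocyte 1 and 3435 CPM in astrocyte 2, against 712 CPM in neuron 1 and 501 CPM in neuron 2. Both astrocyte libraries lay far above both neuron libraries, and the gap between the cell types exceeded the gap within either pair. The mean of the astrocyte pair was 3241 ± 275 CPM and that of the neuron pair 607 ± 150 CPM (SD, n = 2 libraries each).

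**Figure D1:**
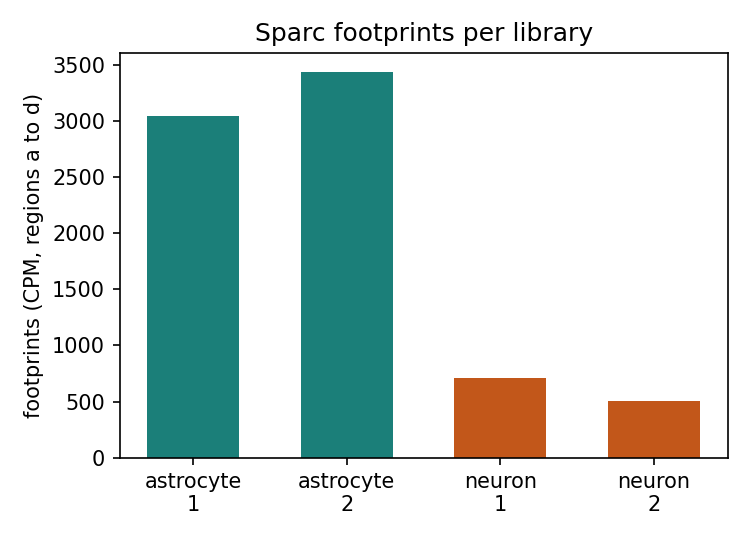
Sparc footprints in each library, as CPM summed over regions a to d (vertical axis, from 0), with 1 bar for each of the 2 astrocyte and 2 neuron libraries. The astrocyte bars stand at 3046 and 3435 CPM and the neuron bars at 712 and 501 CPM.

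In a test fitted to all 18819 transcripts with enough counts, Sparc was 5.79-fold higher in astrocyte samples, with a 95% interval of 3.96-fold to 8.47-fold. On the log2 scale the neuron to astrocyte change was -2.53 (SE 0.238, edgeR adjusted p = 0.000461). Calls in this direction were not rare, since 12.9% of the transcripts tested were called with more footprints in astrocytes and 4.24% with more in neurons. In CPM, both astrocyte libraries lay above both neuron libraries in 25.6% of the transcripts tested, and both neuron libraries lay on top in 40.2%. In size the change of Sparc stood near the end of the distribution, as 179 transcripts, 0.951% of those tested, had a lower log2 value. The median log2 change of all transcripts tested was 0.03.

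The change of Sparc was larger than that of most transcripts with as many footprints. Of the 60 other transcripts whose mean CPM was within 2-fold of that of Sparc, 21 were called with more footprints in astrocytes and 2 with more in neurons, and 6 had a lower log2 change than Sparc. The median log2 change of these 60, which include ENSMUST00000108858, was -0.33. By the number of footprints, which also depends on transcript length, Sparc ranked 17 in astrocyte 1 and 11 in astrocyte 2, but 123 in neuron 1 and 198 in neuron 2. Its share of all counts was 0.305% in astrocyte 1 and 0.344% in astrocyte 2, and 0.0712% in neuron 1 and 0.0501% in neuron 2.

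**Figure D2:**
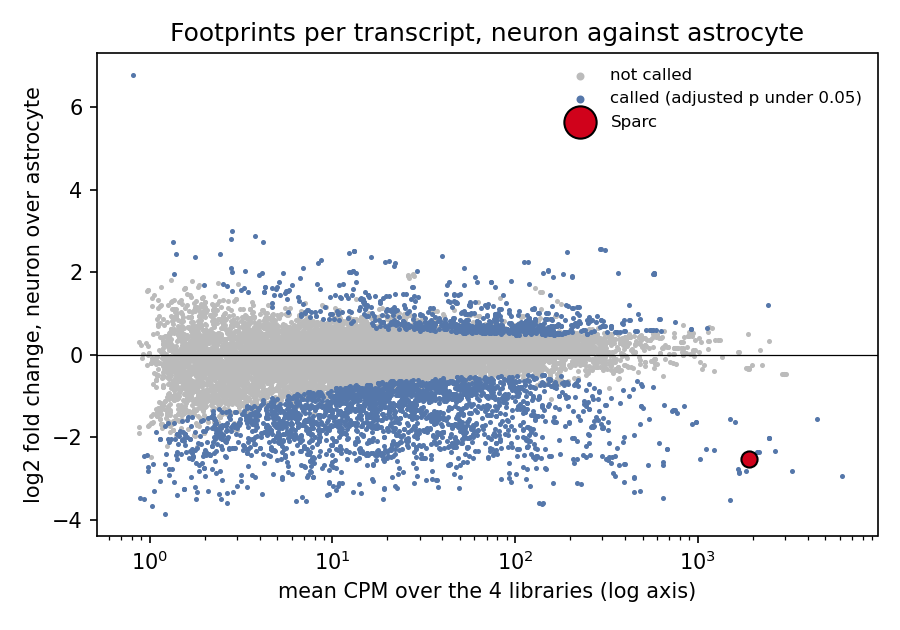
Change in footprints between cell types for the 18819 transcripts tested: mean CPM over the 4 libraries on a log axis against the log2 fold change, neuron over astrocyte, with called transcripts (edgeR adjusted p under 0.05) in blue and the others in grey. Sparc, in red, lies at -2.53 among the most abundant transcripts.

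The number of calls against which Sparc is read depended on the libraries and on scaling. Of the 3219 calls, 2422 were higher in astrocyte samples. That number was 4764 without neuron 1, 1542 without astrocyte 1 and 1357 without astrocyte 2. With library totals in place of TMM factors, the calls split into 1506 for neurons and 2129 for astrocytes, where the TMM factors gave 797 and 2422. The median log2 change of all transcripts was then 0.15, and that of Sparc was -2.42.

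The neuron libraries were not free of Sparc footprints, and they differed from each other more than the astrocyte libraries did. Astrocyte 2 was 1.13-fold above astrocyte 1, and neuron 1 was 1.42-fold above neuron 2. The wider neuron gap was not particular to Sparc. Over 13354 transcripts averaging 10 CPM or more, the log2 ratio within a pair had an SD of 0.191 in astrocytes and 0.433 in neurons. Sparc lay toward the upper end in both pairs. Its ratio was above that of 86.0% of these transcripts for astrocyte 2 over astrocyte 1, and of 90.4% for neuron 1 over neuron 2. Across single libraries, the astrocyte level of Sparc was 4.28-fold and 4.82-fold that of neuron 1 and 6.08-fold and 6.86-fold that of neuron 2. The other 2421 transcripts called higher in astrocyte samples, a set chosen in these same libraries, together took 9.44% of the counts of neuron 1 and 7.49% of those of neuron 2, against 24.1% and 25.1% in astrocyte 1 and 2. Over the 2419 of them with counts in both neuron libraries, neuron 1 was a median of 1.17-fold above neuron 2, with quartiles of 0.957-fold and 1.46-fold. Their part in the neuron level of Sparc was not tested. A footprint level does not separate a larger share of tagged cells with Sparc mRNA, more Sparc mRNA per cell and more ribosomes per mRNA. No matched RNA libraries were analysed here.

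Within the transcript, nearly all Sparc footprints lay in region b. Region b held 21888 counts in astrocyte 1, 26905 in astrocyte 2, 5076 in neuron 1 and 6290 in neuron 2, which is 97.9% to 98.8% of the Sparc counts of a library. In CPM, region b stood at 3001 in astrocyte 1, 3376 in astrocyte 2, 704 in neuron 1 and 490 in neuron 2. Each of the 4 regions was higher in both astrocyte libraries than in both neuron libraries. In counts summed over the regions, 25.6% of the transcripts tested had this order. Its share within a single region was not counted. The ratio of the mean astrocyte to the mean neuron CPM was 5.32 for region a, 5.34 for region b, 5.93 for region c and 6.04 for region d. The ratios for regions c and d rest on few counts in the neuron libraries.

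**Figure D3:**
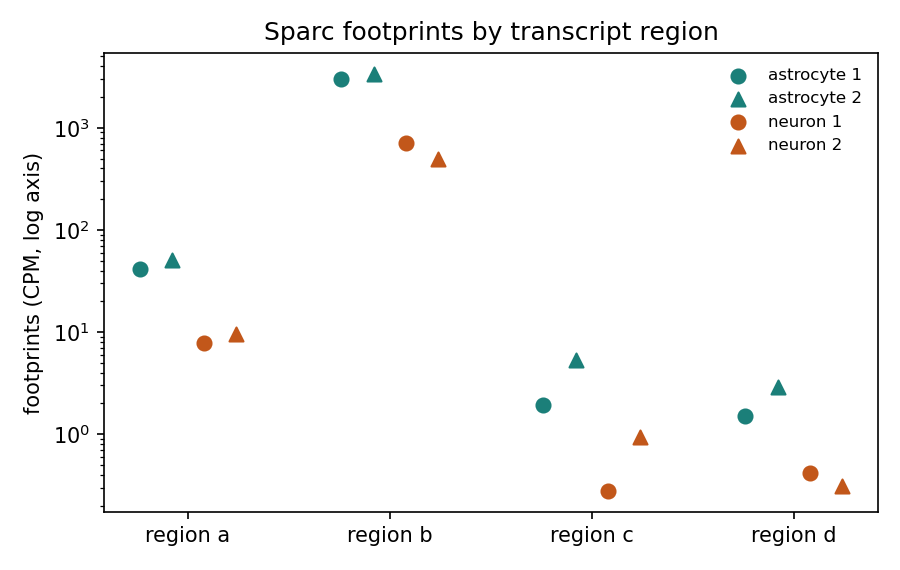
Sparc footprints by region in CPM on a log axis, with astrocyte libraries in green, neuron libraries in orange, replicate 1 as circles and replicate 2 as triangles. In every region both astrocyte points lie above both neuron points, with mean ratios of 5.32 to 6.04.

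Region a of Sparc held 301 counts in astrocyte 1, 404 in astrocyte 2, 56 in neuron 1 and 122 in neuron 2. Relative to region b this was 1.38% in astrocyte 1 and 1.50% in astrocyte 2, against 1.10% in neuron 1 and 1.94% in neuron 2. The neuron libraries lay on either side of the astrocyte pair, so the groups overlapped. The 95% Wilson intervals, taken from the share of the counts of both regions and covering counting error only, ran from 0.848% to 1.43% in neuron 1 and from 1.62% to 2.32% in neuron 2 and did not overlap.

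For Sparc, the region a to region b ratio did not pass the test between the cell types. The log2 change, neuron over astrocyte, was 0.08 with a 95% interval of -0.38 to 0.54 (edgeR adjusted p = 0.931). With each region scaled to its own total, the log2 change of Sparc was 0.32 (edgeR adjusted p = 0.728). Among the 8779 transcripts whose ratio could be tested, the median log2 change was -0.21. It was 0.03 with each region scaled to its own total. In the main test 1.08% passed, 89 with a lower ratio in neurons and 6 with a higher one. These 95 calls depended on the setting: there were 12 with each region scaled to its own total, 10 with DESeq2, 1 without astrocyte 1, 1 without astrocyte 2, 206 without neuron 1 and 53 without neuron 2. The direction for Sparc rested on single libraries: the log2 change was 0.43 without neuron 1 and -0.38 without neuron 2, and passed in neither.

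As a percentage of region b, region a of Sparc lay below the median of other well-covered transcripts. Over all 4 libraries region a held 883 counts against 60159 in region b, or 1.47%. The median of 7382 transcripts whose region b counts summed to 1000 or more was 4.24%, and 23.7% of them lay below Sparc. Among the 72 other transcripts with region b counts within 2-fold of those of Sparc, the median was 4.37% and 29.2% lay below Sparc. The quartiles of these 72 were 0.886% and 9.10%, so Sparc lay between them. Region lengths are not known here, so the percentages are not ratios of densities. Summed over all transcripts of a library, region a was 8.49% of region b in astrocyte 1, 9.01% in astrocyte 2, 7.57% in neuron 1 and 7.29% in neuron 2.

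Region c of Sparc held 14 counts in astrocyte 1, 42 in astrocyte 2, 2 in neuron 1 and 12 in neuron 2. As a percentage of region b this was 0.0640% in astrocyte 1 (95% Wilson interval 0.0381% to 0.107%) and 0.156% in astrocyte 2 (0.115% to 0.211%). In the neuron libraries it was 0.0394% in neuron 1 (0.0108% to 0.144%) and 0.191% in neuron 2 (0.109% to 0.334%). In each cell type the library numbered 2 had the higher percentage, 2.44-fold in astrocytes and 4.84-fold in neurons. The intervals of the astrocyte pair did not overlap and those of the neuron pair did. Summed over all transcripts, region c as a percentage of region b moved 1.07-fold and 0.918-fold between the same libraries. The neuron percentages of Sparc rest on 2 and 12 counts. Regions a and d of Sparc also had the higher percentage in the library numbered 2 of each cell type. The folds were 1.09 in astrocytes and 1.76 in neurons for region a, and 1.70 and 1.08 for region d.

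Between cell types the region c percentages of Sparc overlapped. The astrocyte pair had a mean of 0.11% ± 0.0652 and the neuron pair one of 0.115% ± 0.107 (SD, n = 2 libraries each). The difference, neuron minus astrocyte, was 0.00506 percentage points (two-sided exact permutation p = 1, where 2 against 2 libraries cannot go below 0.33). It was -0.0410 without astrocyte 1 and -0.0706 without neuron 2, so it had no stable direction, and it was 0.0511 without astrocyte 2 and 0.0807 without neuron 1. A further test covered the 290 transcripts with enough region c counts in at least 2 libraries. Sparc entered it only through the astrocyte libraries, with 1.92 and 5.27 CPM in region c. The neuron libraries, with 0.277 and 0.935 CPM, were below the level required. In this test the region c to region b ratio of Sparc had a log2 change of 0.15, with a wide 95% interval of -2.12 to 2.43 (edgeR adjusted p = 0.941). None of the 290 passed (0%) with edgeR or with DESeq2, and 40 had an unadjusted p under 0.05 with edgeR and 16 with DESeq2. With a mean of at least 20 counts in both regions, a setting that leaves out Sparc, edgeR called 5 of 148, all with a higher ratio in neurons. The interval for Sparc includes differences of several-fold in either direction.

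**Figure D4:**
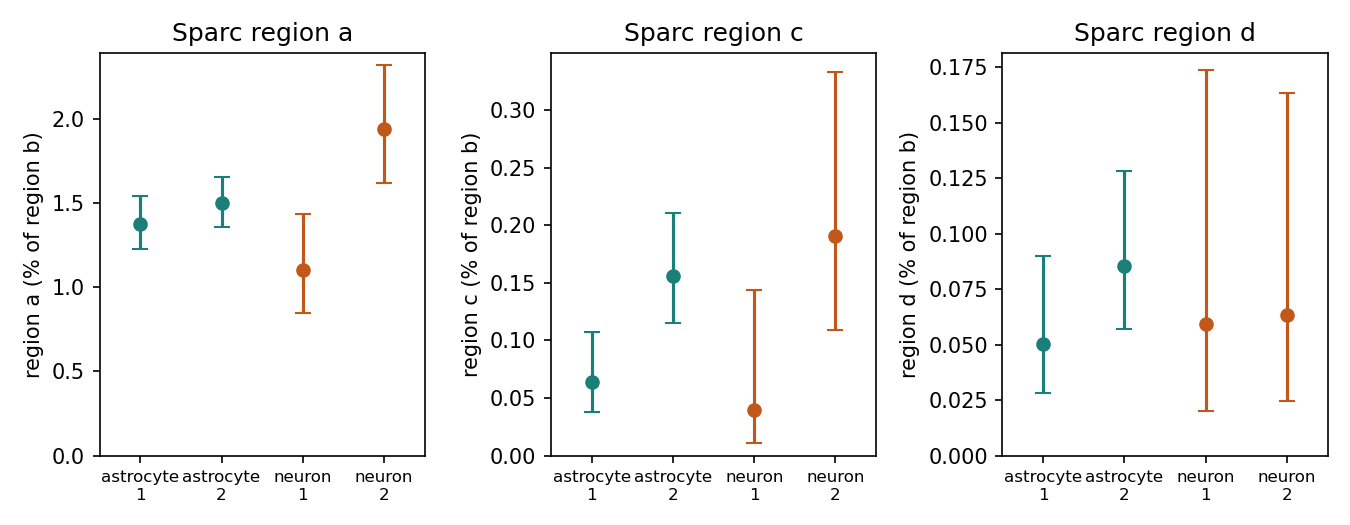
Regions a, c and d of Sparc as a percentage of region b in each library, on separate axes from 0, with astrocyte libraries in green, neuron libraries in orange and bars for 95% Wilson intervals. In all 3 panels the cell types overlap and the libraries numbered 2 lie above those numbered 1. In region c they lie at 0.156% and 0.191%, against 0.0640% and 0.0394% for the libraries numbered 1.

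Region d of Sparc held 11 counts in astrocyte 1, 23 in astrocyte 2, 3 in neuron 1 and 4 in neuron 2. This was 0.0503% and 0.0855% of region b in the astrocyte libraries and 0.0591% and 0.0636% in neuron 1 and 2. Both neuron values fell between the astrocyte values. Sparc entered the region d test only through the astrocyte libraries, with 1.51 and 2.89 CPM in region d. The neuron libraries, with 0.416 and 0.312 CPM, were below the level required. The region d to region b ratio of Sparc had a log2 change of -0.11, with a 95% interval of -1.28 to 1.05 (edgeR adjusted p = 0.951), and 0.184% of the 543 transcripts tested passed, which is 1 transcript, against 5 with each region scaled to its own total, 2 with DESeq2, 5 without astrocyte 1, 5 without astrocyte 2 and 0 without neuron 1, where edgeR gave 45 at an unadjusted p under 0.05. It was 0.33 without astrocyte 2.

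Region c of Sparc held more counts than region d, 70 against 41 over all libraries. It did so in astrocyte 1, astrocyte 2 and neuron 2, but not in neuron 1, where the counts were 2 and 3. Region c exceeded region d in 26.4% of the same 7382 transcripts and in 36.1% of the 72 with region b counts within 2-fold of those of Sparc. The lengths of the regions are not in the files, so the counts of regions c and d are not densities.

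Against other transcripts, the region c percentage of Sparc was above the median and its region d percentage in the middle. The region c value pools libraries from 0.0394% to 0.191%, and 42 of its 70 counts came from astrocyte 2. Over all libraries region c was 0.116% of region b, where the 7382 transcripts had a median of 0.0386% and 73.2% lay below Sparc. Region c was at 0 in 42.3% of those transcripts. Among the 72 transcripts of like region b counts the median was 0.0755%, and 66.7% lay below Sparc. Their quartiles were 0.0164% and 0.147%, so Sparc lay between them. Region d was 0.0682% of region b for Sparc, with medians of 0.0944% and 0.0664% in the larger and the smaller set.

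**Figure D5:**
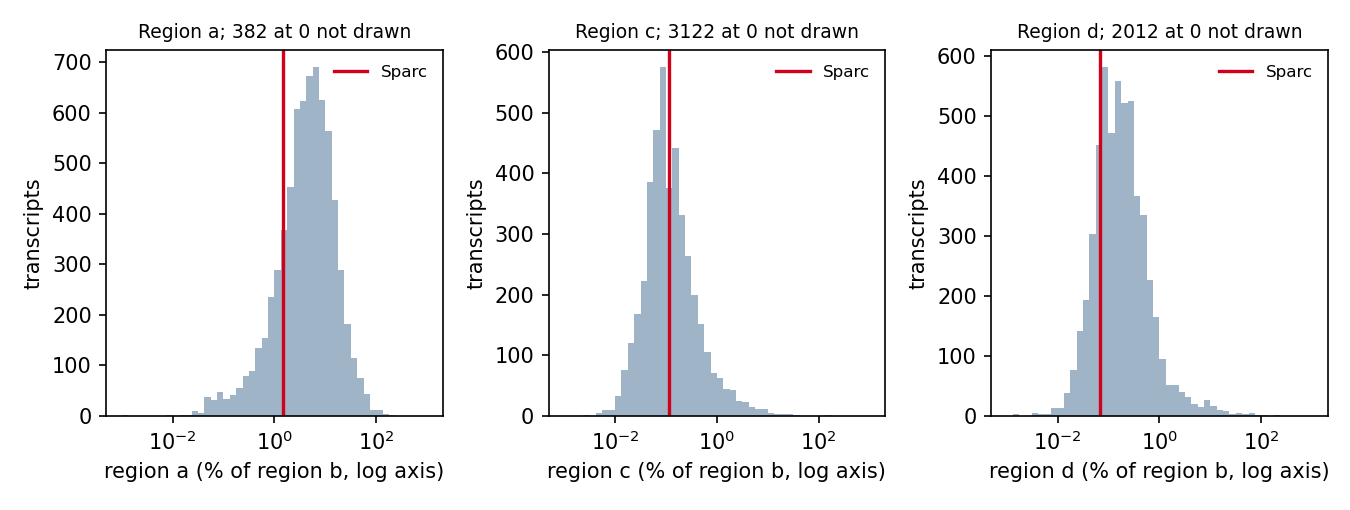
Numbers of transcripts by region a, c or d as a percentage of region b (log axis), for the 7382 transcripts whose summed region b counts reached 1000, with Sparc as a red line and transcripts at 0 not drawn. Sparc stands below the median for region a (1.47%), above it for region c (0.116%) and slightly below it for region d (0.0682%).

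The profile of Sparc over the 4 libraries was shared by other transcripts. Likeness was measured as the distance between log2 CPM profiles, each centred on its own mean over the 4 libraries, for 13352 transcripts that averaged 10 CPM or more. ENSMUST00000108858 was left out of this set. The nearest was ENSMUST00000009425 at a distance of 0.0656, with 15.8 CPM in astrocyte 1, 18.1 in astrocyte 2, 3.61 in neuron 1 and 2.57 in neuron 2. A distance under 0.5, a limit chosen after seeing the data, was found for 199 transcripts, 1.49% of the set. The files give no gene names for them.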

How the data were processed

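The authors deposited whole-number counts of footprints per transcript region in 4 libraries, with no normalization visible in the values. Without saying what each was used for, the submitters' processing notes list edgeR, bedtools, STAR 2.3.1z8, Trimmomatic 0.32, Bowtie2 2.2.2 and FastQC 0.11.2. Not given in the sources used here are the annotation, the genome build, whether strand was used, what the region letters stand for, and how fragments matching more than 1 transcript were handled. Fragments counted for more than 1 transcript enter library totals repeatedly. A region without a line was read as 0.

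Counts were summed over regions a to d and compared with the quasi-likelihood F test of edgeR 4.0.16 in R 4.3.3, with TMM factors, filterByExpr (minimum count 10), cell type as the only term and Benjamini-Hochberg adjustment over all transcripts at 0.05. The ratio of a region to region b was tested as the interaction of region and cell type, with a term per library. The same library total was the offset for both regions. A transcript was tested where its counts in region a, c or d passed filterByExpr (minimum count 10) and region b had a mean of at least 10 counts. SE is the size of the log2 change over the square root of F. DESeq2 1.42.0 was an alternative. P-values of these tests rest on the spread between 2 libraries per cell type, moderated with the spread of the other transcripts tested. They do not rest on the libraries of Sparc alone.

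In simulated counts, 66% of 2-fold and 100% of 4-fold changes of transcript totals were recovered over 18747 transcripts, and 21% and 94% of such changes of the region a ratio over 8641. False calls numbered 6 for totals and 2 for the region a ratio. Only well-covered transcripts were changed. The spread was a single value for all transcripts, taken from the data for totals and set in advance for the ratio. The rates are therefore not the power of the tests of Sparc.

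Named items are Sparc and, by likeness, the nearest transcript, with those whose region b counts were within 20% of Sparc in every library left out. The member and the lists were chosen with earlier results of these data known. The gene and marker lists could not be used, since 0 transcript IDs matched the name tables.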

Additional observations from a re-analysis of the deposited data

How the results depend on the processing

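Sparc stayed higher in astrocyte samples and past the threshold in all 10 alternatives: its log2 change lay between -2.59 and -2.42 in the 6 with all libraries and between -2.83 and -2.28 with 1 library left out. Those last fits take the spread from the complete pair and assume it for the single library of the other cell type. No label says that replicate numbers pair libraries, and libraries of the same number deviated from their group means with r = -0.082 across transcripts. With the replicate block, the log2 change of Sparc was -2.56 and 3416 transcripts were called. Leaving out 1 library gave 1523 to 8958 calls, 1357 to 4764 of them toward astrocytes, and the cause was not tested.

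No region ratio of Sparc passed in any alternative. With 1 library left out, the log2 change ranged from -0.38 to 0.43 for region a, from -1.39 to 0.93 for region c and from -0.43 to 0.33 for region d, and the region c difference from -0.0706 to 0.0807 percentage points. The alternatives to the main tests of the ratios of regions c and d were chosen after seeing the data. Sparc had 70 and 41 counts in these regions, and depth and the spread between libraries were not separated as limits of those tests.

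Not run were all results for Sparcl1 and its ratio to Sparc, whose ID has no line, and a block for the ratios, where each library already has a term. A mean of at least 20 counts left Sparc out of the tests of regions c and d.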
